A study of Mus musculus with 3 samples.

Results

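Long dense clusters of H3K27ac peaks were delineated in the tibialis anterior (TA) muscle of 20-month-old mice. Peaks of the 20-month list on chromosomes 1 to 19 were joined when the gap between them was at most 12.5 kb, and a joined region was kept as a cluster when it spanned at least 30 kb and held at least 8 peaks. Of 20906 joined regions, 217 met this rule, and they spanned 9.77 Mb in all. The members were chosen by the number and spacing of the 20-month peaks, so every 20-month count below is a description, whereas the 2- and 10-month lists played no part in the choice.

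H3K27ac ChIP-seq was carried out on TA muscle of C57/BL6 mice aged 2, 10, and 20 months, with the antibody Abcam ab4729 and 1 library per age. The labels name no transgene or treatment, and it is not given in the sources used here how many animals a library holds. The tissue label and the study's methods name whole TA muscle, whereas the extraction text in the labels speaks of activated satellite cells (SCs), the stem cells of muscle. Since there is a single library for each age, no age difference could be set against the spread between animals, and no p-value is given. In whole muscle, fewer cells of a type and less mark per cell cannot be told apart, and the tissue was not checked against muscle marker genes, because the only gene positions used here are those of 84 extracellular matrix (ECM) genes.

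H3K27ac is the acetylation of a lysine in the tail of histone H3, and it marks the nucleosomes around active promoters and active enhancers. Enhancers are DNA elements that bind transcription factors and raise the transcription of a gene at a distance. Where many acetylated elements lie close together they are often grouped into enhancer clusters, or super-enhancers, which are known to lie near genes of cell identity. Such clusters are usually ranked by ChIP-seq signal, whereas here the rule used peak positions alone, and the regions are therefore called clusters.

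The 3 lists differ in size across the whole genome, and this bears on each comparison below. On chromosomes 1 to 19 the lists hold 17247, 34506, and 43823 peaks at 2, 10, and 20 months, which cover 5.78, 17.0, and 19.1 Mb. The genome mean, that is the background coverage the peak caller assigned where no local background was higher, was 1.26, 2.24, and 2.504 reads in the 2-, 10-, and 20-month libraries. In 78.3% of the 2-month peaks the background was this genome mean, against 2.87% at 10 months and 4.89% at 20 months. Values with the later lists shortened to the 17247 peaks of best q, as many as at 2 months, are therefore given where they turn a result. The part of the difference in background was not tested.

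The median cluster spanned 42.2 kb (range 30.0 to 110.6 kb) and held 10 peaks at 20 months (8 to 29). At 10 months the median was 8 peaks (1 to 22), and at 2 months it was 5 peaks (0 to 33). The median number of bp covered by peaks was 1521, 3606, and 4296 at 2, 10, and 20 months. Peaks therefore covered a small part of a cluster, with medians of 3.92%, 8.90%, and 10.3% of the span in the same order. Summed over the 217 clusters, there were 1337, 1697, and 2315 peaks, covering 489129, 845013, and 1004678 bp.

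Between 2 and 20 months the clusters gained less than the lists as wholes. Peak number within clusters at 20 months was 1.73 times that at 2 months, while the whole list was 2.54 times as long. Covered bp within clusters was 2.05 times as high at 20 as at 2 months, against 3.30 times for the whole lists. With lists of equal length the order of the peak numbers turned, and the clusters held 1337, 954, and 1009 peaks at 2, 10, and 20 months, whereas covered bp was still lowest at 2 months, at 489129, 567285, and 566916 bp. Hence the clusters held 7.75% of the 2-month list, 4.92% of the 10-month list, and 5.28% of the 20-month list. From 10 to 20 months the order turned, since peaks within clusters were 1.36 times as many against 1.27 times in the whole lists, and covered bp was 1.19 times as high against 1.12 times. The 20-month side of that last step is the one that chose the clusters.

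**Figure D1:**
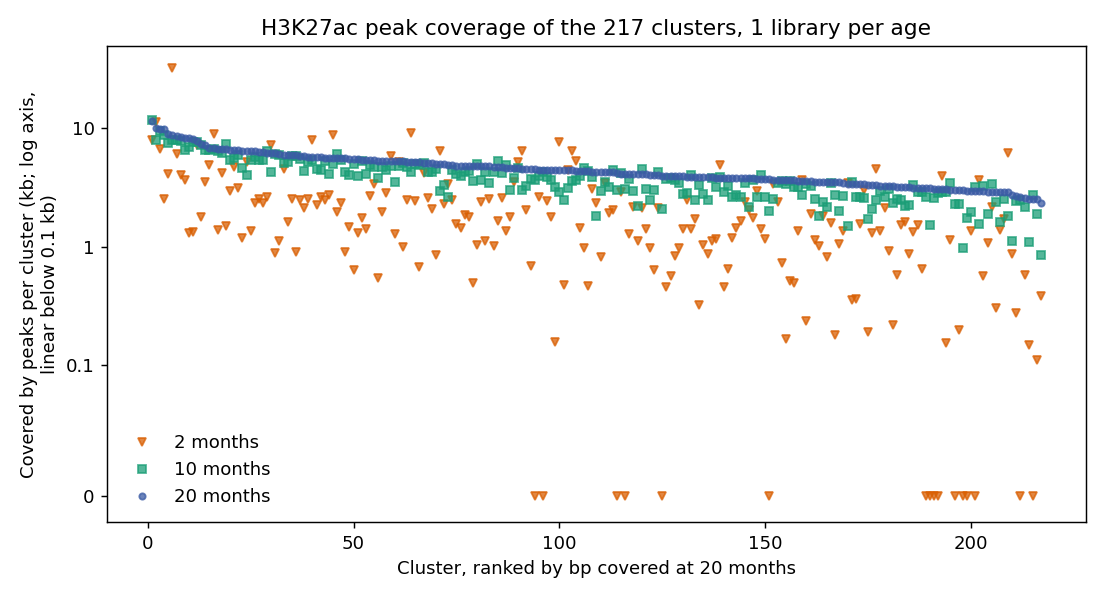
Kilobases covered by H3K27ac peaks in each of the 217 clusters (log axis, linear below 0.1 kb) against the rank of the cluster by bp covered at 20 months, with a point for each age and 1 library per age. The 10-month points run close to the 20-month points, while the 2-month points spread from 0 in 16 clusters to 32.7 kb in the cluster of rank 6.

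The order of the clusters was largely shared by the later libraries. Across the 217 clusters, Spearman's rho of covered bp was 0.87 between 20 and 10 months, 0.52 between 20 and 2 months, and 0.46 between 10 and 2 months. These are descriptions over clusters of the same 3 libraries, and clusters are not replicates. Of the 12 clusters with most covered bp at 20 months, 10 were among the top 12 at 10 months and 5 at 2 months.

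The cluster of rank 1 lay at chr9:107436407-107547010 (mm9, as all cluster positions here) and spanned 110.6 kb. It held 22 peaks covering 8034 bp at 2 months, 19 peaks covering 11758 bp at 10 months, and 23 peaks covering 11505 bp at 20 months. The number of peaks was thus similar at all ages, while the 2-month peaks covered less. Its highest summit reached 13.5, 37.5, and 35.5 times the genome mean of the library at 2, 10, and 20 months.

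Rank 2, at chr11:87900010-88001736, showed the reverse for covered bp. It held 29, 18, and 26 peaks at 2, 10, and 20 months, which covered 11419, 7925, and 10108 bp. Its highest summit nevertheless stood at 15.9, 33.9, and 37.9 times the genome mean, lower at 2 months than later. The map of the leading clusters shows the additional 2-month peaks as a dense run to the right of the centre.

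Ranks 3 and 7 held nearly equal numbers of peaks at each age. Rank 3, at chr7:80702003-80772963, had 12, 13, and 13 peaks covering 6648, 9454, and 9963 bp at 2, 10, and 20 months. Rank 7, at chr6:47689992-47739358, had 12, 13, and 16 peaks covering 6140, 7958, and 8562 bp, and its highest summit stood at 34.1, 78.9, and 74.7 times the genome mean. A 2-month peak overlapped 8 of the 13 peaks at 20 months in rank 3 and 11 of the 16 in rank 7.

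A larger gain lay in the clusters of rank 4, 10, and 11. Rank 4, at chr13:23609156-23677830, had 6, 13, and 17 peaks covering 2511, 8760, and 9835 bp at 2, 10, and 20 months. At rank 10, chr12:86776364-86838692, covered bp was 1303, 7008, and 8242, a 6.33-fold difference between 20 and 2 months. At rank 11, chr8:107778198-107851033, it was 1341, 7692, and 8113 bp, a 6.05-fold difference. In all 3 of these clusters the 10-month value was close to that at 20 months and far from that at 2 months.

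The remaining clusters of the top 12 lay between these patterns. Rank 5, at chr8:73030130-73135653, had 4123, 7496, and 9058 covered bp at 2, 10, and 20 months. Rank 8, at chr17:34045458-34118741, had 4001, 7881, and 8510 bp. Rank 9, at chr17:45692690-45763914, had 3693, 6629, and 8310 bp, and rank 12, at chr19:8994380-9072134, had 7283, 7666, and 7813 bp. Rank 12 stood out within this group in that its covered bp at 2 months was nearly that of the later ages, although its highest summit was at 19.0, 45.05, and 47.5 times the genome mean.

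**Figure D2:**
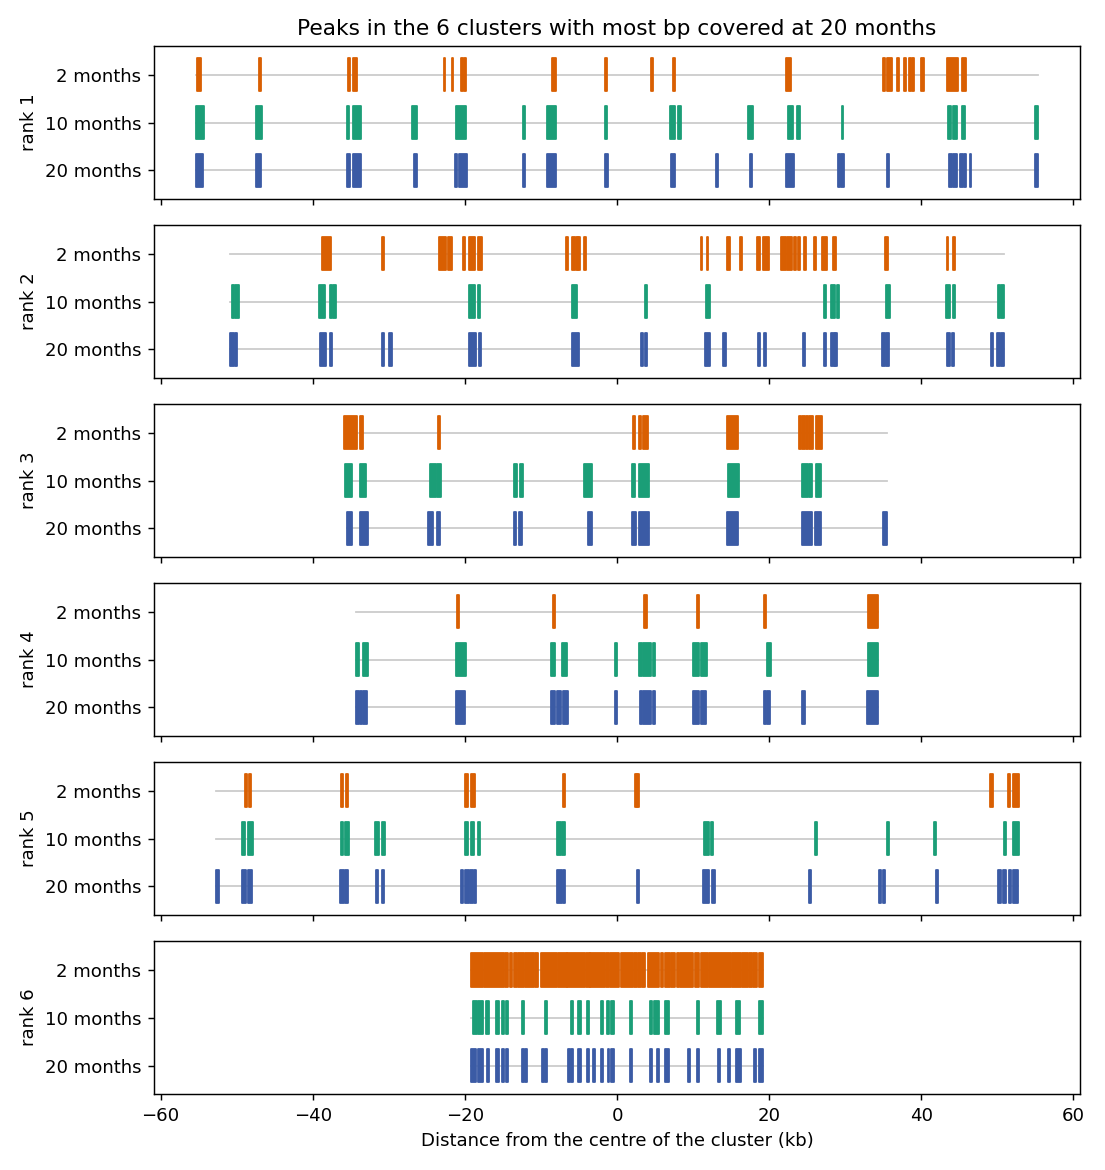
Positions of H3K27ac peaks in the 6 clusters with most bp covered at 20 months, as distance in kb from the centre of the cluster, with 1 track per age (1 library each) and the grey line as the span of the cluster; peaks narrower than 0.25 kb are drawn 0.25 kb wide. The 2-month peaks of rank 6 cover 85.4% of its span, whereas in the cluster of rank 4 only 6 peaks are listed at 2 months.

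The cluster of rank 6 stood apart from the other 216. It lay at chr9:3000022-3038285, at the first listed positions of that chromosome, and held 33 peaks covering 32673 bp at 2 months, 22 covering 8018 bp at 10 months, and 29 covering 8785 bp at 20 months. Its highest summit was at 235, 162, and 134 times the genome mean, while the other clusters reached at most 40.4, 78.9, and 82.3 times. Its density of 7.58 peaks per 10 kb at 20 months compares with at most 3.69 in the others. The lists hold no measure of how uniquely reads map there, so its values may not be comparable with those of the other clusters. Without it the medians of the ratios of covered bp per cluster, given next, were the same when rounded to 2 decimals, at 2.23 for 10 over 2 months and 2.68 for 20 over 2 months.

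Within single clusters, covered bp at 10 months was a median of 2.23 times that at 2 months (95% order-statistic interval 2.03 to 2.61 over clusters), and at 20 months 2.68 times (2.36 to 3.14). Between 20 and 10 months the median ratio was 1.18 (1.13 to 1.22), over clusters chosen by their 20-month peaks. This last excess was not kept with equally long lists, where the ratios were 1.59 for 10 over 2 months, 1.58 for 20 over 2 months, and 0.998 (0.97 to 1.04) for 20 over 10 months, or with the 108 clusters of the 10-month list, where 20 over 10 months was 0.98 (0.95 to 1.02). Covered bp depends on peak width as well as on peak number. The median width inside clusters was 274, 425, and 363 bp at 2, 10, and 20 months. With windows of 200 bp around each summit the median ratio was 1.43 for 10 over 2 months. In the same setting it was 2.00 for 20 over 2 months and 1.33 for 20 over 10 months. Covered bp was higher at 10 than at 2 months in 188 of 217 clusters (86.6%, against 85.1% of all joined regions with 2 or more peaks), and it was successively higher at 10 and at 20 months in 166 clusters (76.5%, against 67.4%), a count that rests in part on the choice by 20-month peaks. In 184 clusters the 10- and 20-month values lay within 1.5 times of each other (84.8%, against 66.8%).

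How this gain stood against that elsewhere depended on the joined regions set beside it. A ratio of at least 2 between 20 and 2 months was found in 153 of 217 clusters (70.5%), below the 80.7% of all 11446 joined regions with 2 or more peaks. The other 11229 joined regions with 2 or more peaks had a median ratio of 7.09 for 20 over 2 months, since 45.5% of them held no 2-month peak at all, against 7.37% of the clusters. The regions most like the clusters were 87 joined regions with 8 or more peaks that fell short of 30 kb. Their median ratio was 2.31 (2.02 to 2.86), below the 2.68 (2.36 to 3.14) of the clusters, and the 2 intervals overlap.

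**Figure D3:**
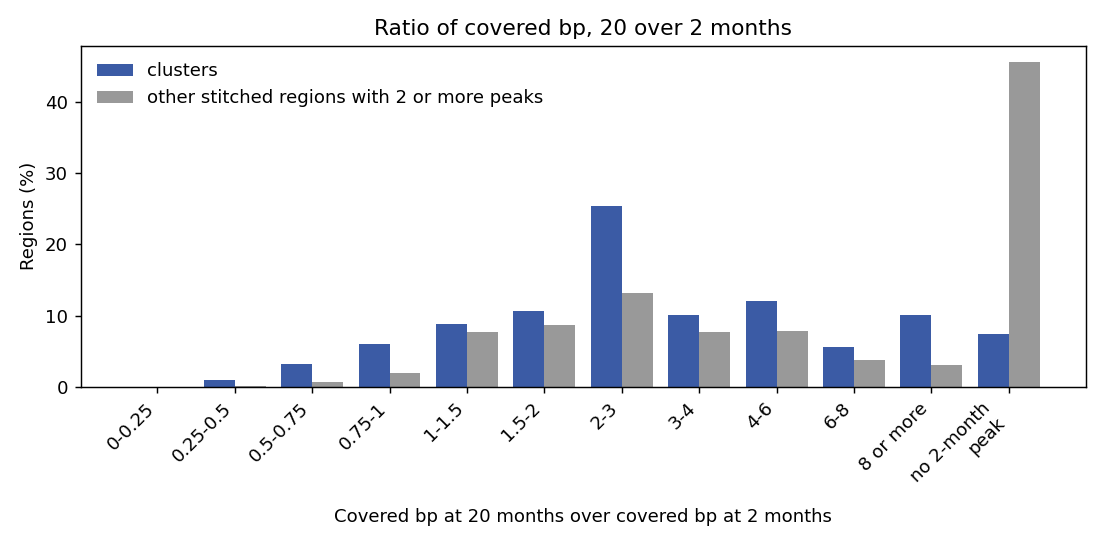
Share of regions (%) in bins of the ratio of covered bp at 20 months over that at 2 months, for the 217 clusters and for the 11229 other joined regions with 2 or more peaks at 20 months. Ratios of 2 to 3 are the fullest bin of the clusters (25.3%), whereas 45.5% of the other regions hold no 2-month peak.

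A group of 16 clusters (7.37%) had no 2-month peak. The foremost of these, of rank 94 at chr16:31589472-31638541, held 10 peaks covering 3696 bp at 10 months and 12 peaks covering 4551 bp at 20 months. Rank 96, at chr2:155102736-155147302, held 9 peaks covering 4303 bp at 10 months and 10 peaks covering 4481 bp at 20 months. A further 3 followed in rank, namely 114 at chr13:22112316-22143282, 116 at chr15:25845099-25887535, and 125 at chr15:77022852-77076951, with 6, 7, and 6 peaks at 10 months and 11, 12, and 8 peaks at 20 months. The 16 ranked between 94 and 215, and their highest summits were lower than in the remaining clusters, with medians of 23.4 times the genome mean at 10 months and 22.2 at 20 months, against 31.7 and 33.1 over all clusters. A peak absent from the 2-month list says that the region did not pass the threshold in that library, which had the lowest coverage.

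At the other end, 22 clusters (10.1%) were covered over more bp at 2 months than at 20 months, and each of these also had more covered bp at 2 than at 10 months. Among all joined regions with 2 or more peaks the share with more covered bp at 2 than at 20 months was 2.94%. Their median number of peaks was 15, 7.5, and 10.5 at 2, 10, and 20 months. After rank 6 and rank 2, the most covered bp at 2 months was found at rank 64, chr10:80840384-80896574, with 27, 9, and 13 peaks over 9238, 4304, and 5220 bp at 2, 10, and 20 months. Rank 16, chr11:98629719-98671910, had 20, 13, and 13 peaks over 8988, 6680, and 6806 bp. Rank 45, chr7:71033045-71084631, had 23, 11, and 10 peaks over 8782, 5035, and 5623 bp.

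In these 22 clusters a large part of the 2-month peaks had no later counterpart. This follows in part from the choice of clusters with more covered bp at 2 than at 20 months. A 10- or 20-month peak overlapped 194 of their 349 2-month peaks (55.6%, exact Clopper-Pearson 95% interval 50.2 to 60.9), and 55.1% without rank 6, against 82.6% (80.1 to 84.9) in the other clusters and 78.6% outside the clusters. The summits of the 2-month peaks were about as high in the 22 clusters, with a median of 11.9 times the genome mean (11.1 without rank 6), as in the other clusters (10.3). The highest summit was lower at 2 months than later in 21 of these clusters, rank 6 being the exception. The number of peaks was higher at 2 than at 20 months in 19 of the 217 clusters (8.76%). The share over all joined regions was not computed for peak number.

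Merging the 3 lists gave 2614 separate regions within the clusters and 48533 outside. Regions with a peak at all ages made up 28.2% (26.4 to 29.9) of those inside and 20.2% (19.8 to 20.5) of those outside. Regions with a 2-month peak alone were 12.5% inside and 7.02% outside. Regions with peaks at 10 and 20 months only made up 30.1% inside and 34.03% outside, and those with a 20-month peak alone 19.7% and 25.04%. The rule asked for 20-month peaks, so the low share of regions with a 10-month peak alone, 3.67% inside and 10.9% outside, follows in part from the choice.

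Of the 326 regions with a 2-month peak alone inside clusters, 197 (60.4%) lay within 1 kb of a 20-month peak, and the median distance was 0.69 kb. Outside the clusters 52.1% of such regions lay as near. The rule asked for closely spaced 20-month peaks, so the nearness inside clusters follows in part from the choice. These regions were spread over 108 clusters, and 155 of them fell in the 22 clusters with more covered bp at 2 months. Their summits had a median of 9.52 times the genome mean both inside and outside.

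Most of the 20-month peaks within clusters were already present at 10 months. A 10-month peak overlapped 1640 of 2315 of them (70.8%, interval 68.9 to 72.7), close to the 67.5% of all 20-month peaks. A 2-month peak overlapped 932 of 2315 (40.3%, 38.3 to 42.3), above the 28.5% of all 20-month peaks. These intervals cover counting error only.

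The height of the peaks differed between the clusters and the rest, and the overlap went with height. When all 20-month peaks were divided into quartiles by summit coverage, 42.8% of the peaks in clusters and 23.6% of those outside fell in the top quartile, while 7.17% and 27.5% fell in the lowest. Within the top quartile a 2-month peak overlapped 68.9% (65.9 to 71.8) of the peaks in clusters and 71.2% (70.3 to 72.1) of those outside. Within the third quartile the shares were 26.98% and 30.8%. The higher overall share with a 2-month peak was thus not seen between peaks of like height, except in the lowest quartile, where it was 5.42% (2.51 to 10.0) and 2.67% with overlapping intervals.

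For the 10-month list the comparison at like height turned round. In the top quartile a 10-month peak overlapped 83.96% (81.5 to 86.2) of the 20-month peaks in clusters against 92.5% (91.9 to 93.0) outside. In the third quartile the shares were 67.7% and 80.3%, and in the second 55.6% and 65.3%. Only in the lowest quartile was the share higher in clusters, at 46.4% (38.6 to 54.3) against 36.7% (35.8 to 37.6).

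**Figure D4:**
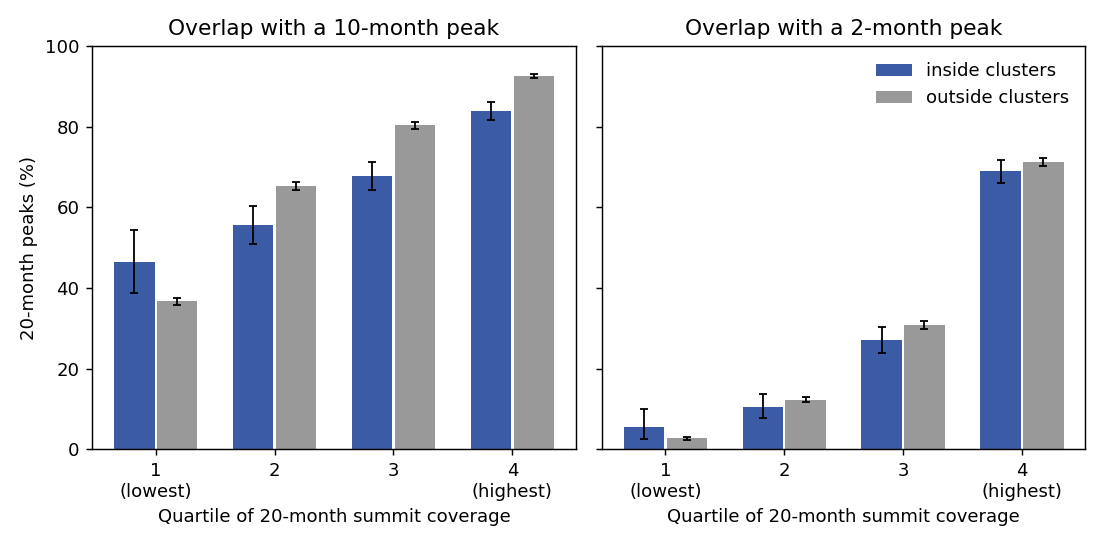
Share (%) of 20-month peaks that overlap a 10-month peak (left) or a 2-month peak (right) by at least 1 bp, by quartile of summit coverage at 20 months, for peaks inside and outside the clusters; error bars are exact 95% binomial intervals. In the top quartile 83.96% of the peaks inside and 92.5% of those outside overlap a 10-month peak, while the 2-month shares are 68.9% and 71.2%.

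To set heights side by side, the reads at each summit were taken as multiples of the genome mean of their library. Inside clusters the median summit stood at 11.1, 21.4, and 19.6 times the genome mean at 2, 10, and 20 months. Outside, the medians were 11.1, 15.6, and 14.0 times. The summits in clusters were thus higher than elsewhere in the later libraries and as high at 2 months. The local background that the peak caller used was higher in clusters too, with a median of 5.49 against 3.16 times the genome mean at 10 months and 5.04 against 2.89 at 20 months, while it was 1.00 in both at 2 months. Measured over that local background, the order turned, with a median fold of 3.54 inside against 4.11 outside at 10 months and of 3.41 against 4.05 at 20 months.

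Regions marked at every age allow the same places to be followed. In the 736 such regions inside clusters the median level was 11.9, 27.2, and 27.8 times the genome mean at 2, 10, and 20 months. The median ratio was 2.22 (interval 2.12 to 2.28) for 10 over 2 months, 2.23 (2.19 to 2.31) for 20 over 2 months, and 1.02 (1.00 to 1.03) for 20 over 10 months. Outside the clusters, over 9789 regions, the ratios were 1.94 (1.92 to 1.95), 2.07 (2.05 to 2.09), and 1.07 (1.06 to 1.07). The level was higher at 20 than at 2 months in 96.1% of the regions inside and 95.8% outside, so the direction was shared by the list as a whole.

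The highest summit of each cluster gave the same picture. It was higher at 10 and at 20 months than at 2 months in 200 of the 201 clusters with a 2-month peak. Rank 6 was the exception, and the median ratios were 2.15 and 2.25. Among single regions outside clusters with a peak at every age, the shares were 93.4% and 95.8%. The later maxima were taken over more peaks, with medians of 5, 8, and 10 per cluster at 2, 10, and 20 months. The part of this was not tested. Between 10 and 20 months the highest summit was higher at 20 months in 119 of 217 clusters (54.8%, against 63.5% of those single regions). The median ratio was 1.01 (0.99 to 1.04). For the top 12 clusters the exact interval of the ratio of summit reads, which covers counting error only, lay above 1 in 11 for both later ages over 2 months. It included 1 in 11 for 20 over 10 months, and at rank 6 all ratios lay below 1, at 0.69 for 10 over 2 months (0.59 to 0.81), 0.57 for 20 over 2 months (0.49 to 0.67), and 0.83 for 20 over 10 months (0.71 to 0.96).

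When the same rule was applied to the other lists, fewer clusters were found. The 2-month list gave 40 clusters, of which 27 (67.5%) overlapped a 20-month cluster, and the 10-month list gave 108, of which 77 (71.3%) did. Seen from the 217 clusters, 26 (12.0%) overlapped a 2-month cluster and 77 (35.5%) a 10-month cluster. The order of these counts turned with equally long lists, where the 10-month list gave 17 clusters against the 40 of the 2-month list. In the full lists both were overlapped in 17 cases, and 131 of the 217 had no counterpart in either list. Even so, 111 of the 217 held at least 8 peaks at 10 months and 59 did at 2 months. The rule asked for 8 peaks in the longest list, so the lower counts in the shorter lists follow in part from the choice. No share over other regions was computed for these counts. The upper quartile of peak number in the clusters was 9 at 10 months and 8 at 2 months. In the shorter joined regions with 8 or more peaks it was 7.5 and 6. No cluster was without a 10-month peak (0 of 217). The same was true of the 87 joined regions with 8 or more peaks that fell short of 30 kb, which each held at least 2.

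In 23 clusters (10.6%) covered bp was higher at 10 than at 20 months, against 18% of all joined regions with 2 or more peaks. The largest ratios of 10 over 20 months were small, at 1.16 for rank 205 (chr15:88669325-88706829), 1.15 for rank 195 (chr2:164594957-164631114), 1.12 for rank 85 (chr2:179942865-180011215), and 1.11 for ranks 203 and 120, on chromosomes 18 and 8. The lowest ratio was 0.33 at rank 198, chr4:57261065-57294295, with 0, 3, and 9 peaks at 2, 10, and 20 months. It was followed by 0.36 at rank 217 (chr9:121245684-121280685), 0.41 at rank 210 (chr4:100907211-100937792), 0.43 at rank 109 (chr3:60299030-60335548), and 0.43 at rank 214 (chr17:32118821-32156150). The highest summit was higher at 10 than at 20 months in 3 of these 5 clusters, with 24.1 and 20.8 times the genome mean at rank 198, 28.5 and 24.4 at rank 217, and 32.1 and 29.2 at rank 109. At ranks 210 and 214 it was 22.7 and 26.3 times at 10 months, against 23.6 and 27.6 at 20 months. These 5 clusters thus had few peaks at 10 months. Their highest summit at that age exceeded the median of all clusters, 31.7 times, only at rank 109.

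Clusters were unevenly placed on the chromosomes. Chromosome 11 held 31 of the 217 (14.3%), while it held 7.97% of the 20-month peaks, and 9.40% of its peaks lay in clusters. It was followed by chromosome 7 with 17 (7.83% of the clusters, against 6.42% of the 20-month peaks). Chromosomes 15 and 17 held 15 each (6.91%, against 4.27% and 4.92% of the peaks). The fewest were found on chromosome 13, with 4 (1.84%, against 4.16% of the peaks), and chromosome 16, with 5 (2.30%, against 3.48%).

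The rule has sharp limits, and the regions on either side of them are alike. The shortest clusters spanned 30028, 30060, and 30097 bp with 11, 9, and 8 peaks, at chr14:56193799-56223826, chr10:128346189-128376248, and chr11:106859889-106889985. The longest regions that missed the limit with 8 or more peaks spanned 29945, 29839, and 29754 bp with 8, 12, and 8 peaks, at chr8:114240018-114269962, chr15:76525399-76555237, and chr8:72653009-72682762. Exactly 8 peaks were held by 44 clusters, the longest being 54100, 52217, and 51070 bp, and 56 regions of at least 30 kb were left out with 7 peaks, the longest being 52761, 43332, and 42605 bp. Closely spaced peaks also count singly here, and when peaks within 1 kb of each other were merged first, 45 clusters remained.

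The ECM, the network of collagens, laminins, and glycoproteins around muscle fibres, is the gene group the study followed in these mice. Positions were at hand for 84 ECM genes that the study lists, which need not be all the ECM genes it considered. Of these, 83 lie on chromosomes 1 to 19, and the bodies of 2 overlapped a cluster, *Sparc* and *Thbs3*. *Sparc* encodes a secreted glycoprotein that binds calcium and collagen, and *Thbs3* encodes a thrombospondin, a secreted calcium-binding protein of the matrix. The TSSs of 3 further genes lay within 50 kb of a cluster. These were *Itgal*, an integrin subunit of leukocytes, 21.8 kb away, *Mmp9*, a protease that cleaves gelatin and collagen, 23.7 kb away, and *Ecm1*, a secreted matrix protein, 26.6 kb away. None of the other ECM genes lay within 100 kb.

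The promoters of the 2 overlapped genes are shown because peaks of both clusters lie at or near them. They are the 250 bases before the start of each gene in RefSeq (GRCm38.p6, the gene's strand), at chr11:55420081-55420330 on the minus strand for *Sparc* and chr3:89214930-89215179 on the plus strand for *Thbs3*. Capitals mark matches to an E-box (CANNTG, the sequence bound by myogenic factors of the MyoD family among others), a CCAAT box (CCAAT or ATTGG), or a GC box (GGGCGG or CCGCCC).
Sparc: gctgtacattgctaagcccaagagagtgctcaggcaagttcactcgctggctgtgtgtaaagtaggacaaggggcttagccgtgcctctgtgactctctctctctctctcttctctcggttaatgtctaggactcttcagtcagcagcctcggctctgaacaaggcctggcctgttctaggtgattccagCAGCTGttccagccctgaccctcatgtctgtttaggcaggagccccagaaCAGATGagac
Thbs3: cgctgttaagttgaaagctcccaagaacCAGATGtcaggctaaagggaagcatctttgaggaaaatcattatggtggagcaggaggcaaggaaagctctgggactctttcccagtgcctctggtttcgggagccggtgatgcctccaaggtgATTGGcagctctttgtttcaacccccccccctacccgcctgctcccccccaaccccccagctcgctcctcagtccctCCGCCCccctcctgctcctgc

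The *Sparc* promoter held 2 E-boxes and no CCAAT, GC, or TATA box (TATAAA), whereas the *Thbs3* promoter held 1 E-box, 1 CCAAT box, and 1 GC box. Such matches are frequent. Over 32851 promoters of the same length, searched on both strands, 66.2% held an E-box, 33.8% a CCAAT box, 32.7% a GC box, and 12.4% a TATA box. The GC content was 54% for *Sparc* and 58.8% for *Thbs3*, with a median of 52.4% over all promoters. A match is a description of letters and does not show binding.

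*Sparc* (chr11:55207661-55233582 in mm9, minus strand) lay wholly within the cluster of rank 148, chr11:55182511-55242482. The cluster held 9, 7, and 9 peaks at 2, 10, and 20 months, over 2955, 2646, and 3748 bp. Although these totals were similar, the places differed. All 9 of the 2-month summits lay in the gene, and 5 of the peaks lay within 2.5 kb of the TSS. At 10 months 2 summits lay in the gene, 2 before the TSS, and 3 past the end of the gene, and at 20 months the numbers were 4, 2, and 3.

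The highest summit of the *Sparc* cluster lay at nearly the same place in every library, 0.40, 0.41, and 0.44 kb inside the gene at 2, 10, and 20 months. It reached 15.1, 31.2, and 26.4 times the genome mean. The summits listed only at the later ages, 7.96 to 8.64 kb before the TSS and 29.8 to 51.0 kb past it, were lower, between 5.35 and 15.2 times at 10 months and between 7.19 and 14.0 times at 20 months. In gene order *Sparc* is flanked by *Fat2* and *Atox1* (RefSeq, GRCm38.p6), and whether these genes reach into the cluster was not determined.

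*Thbs3* (chr3:89019109-89030759, plus strand) lay wholly within the cluster of rank 36, chr3:88968071-89032827. This cluster held 3 peaks over 897 bp at 2 months, 9 over 5794 bp at 10 months, and 12 over 5945 bp at 20 months. Unlike at *Sparc*, no 2-month peak lay within 2.5 kb of the TSS, where 1 was listed at 10 months and 3 at 20 months. Before the TSS lay 3, 7, and 8 summits at 2, 10, and 20 months. The 3 summits at 2 months stood 50.03, 37.4, and 31.6 kb before the TSS, at 10.3, 10.3, and 9.52 times the genome mean, and each had a summit close by in both later libraries.

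The highest later summits of this cluster also lay away from *Thbs3*, 50.7 kb before the TSS, with 24.1 times the genome mean at 10 months and 24.8 at 20 months. The highest summit near the TSS, 0.97 kb before it at 10 months and 0.98 kb at 20 months, reached 23.6 and 22.0 times.

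**Figure D5:**
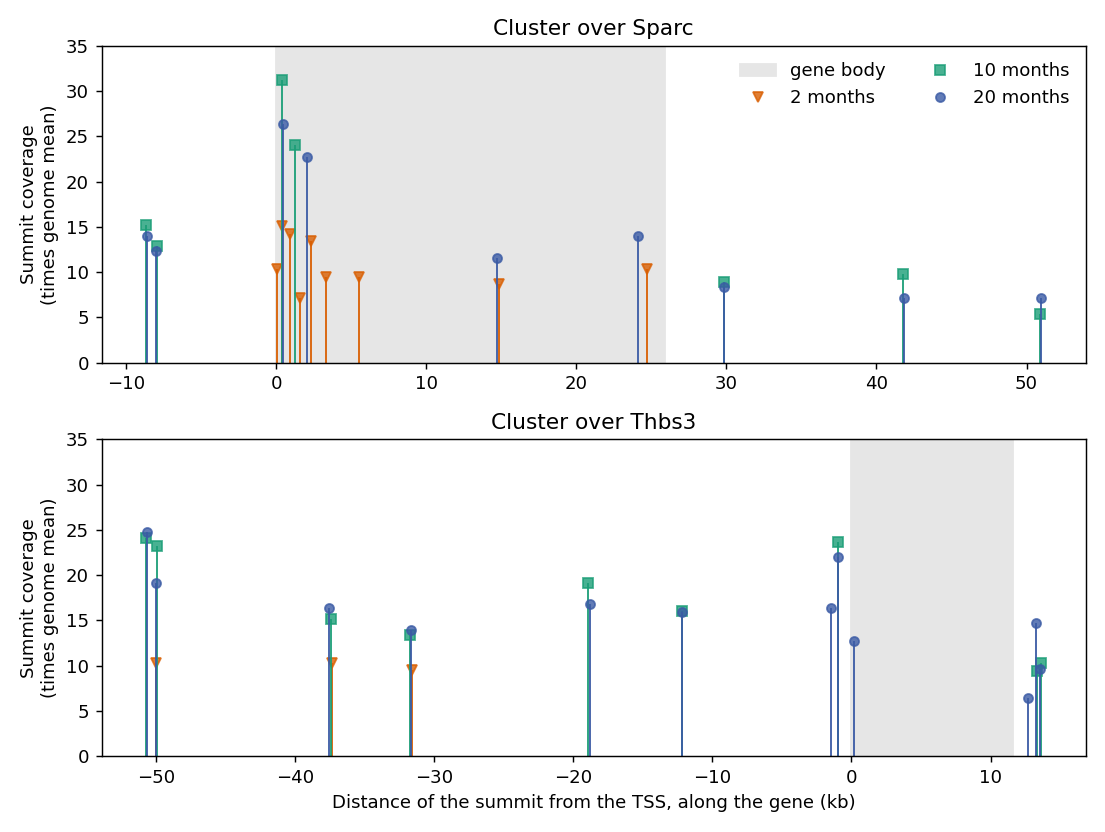
Summit coverage, as multiples of the genome mean of each library, of the H3K27ac peaks in the clusters over *Sparc* and *Thbs3*, against the distance of the summit from the TSS in kb along the gene; grey marks the gene body and each age is 1 library. At *Sparc* the 2-month summits all lie in the gene, whereas at *Thbs3* the 3 of them lie 31.6 to 50.03 kb before the TSS.

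The clusters near the other 3 genes followed different patterns. Rank 71 near *Ecm1*, chr3:95454268-95516907, was among the 22 with more covered bp at 2 months, with 17, 6, and 13 peaks over 6399, 2956, and 4968 bp at 2, 10, and 20 months. Rank 42 near *Mmp9*, chr2:164687269-164750059, had 7, 10, and 12 peaks over 2609, 4485, and 5722 bp. Rank 124 near *Itgal*, chr7:134375965-134417999, had 6, 10, and 9 peaks over 2119, 4284, and 4002 bp. No peak of any list lay in the bodies of *Itgal* and *Mmp9* or within 2.5 kb of their TSSs. *Ecm1* had no 2-month peak in these places, and 1 peak at 10 months and 1 at 20 months both in its body and within 2.5 kb of its TSS.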

How the data were processed

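H3K27ac ChIP-seq peak lists of TA muscle at 2, 10, and 20 months (1 library each) were used. The submitters' processing notes name Bowtie2, mm9, and MACS2 2.1.0. Not given in the sources used here are the version of Bowtie2 and any control library. The deposited lists hold for each peak its position, −log10 of its p and q, a score, and the fold (the ratio of pileup at the summit over background), all as the authors' peak caller gave them, with no gene name. The score was not used.

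Peaks were joined, counted, and intersected (overlap of at least 1 bp) with Python 3.11.15, numpy 2.4.6, pandas 2.3.3, and scipy 1.17.1, and plotted with matplotlib 3.10.9. From the deposited fold and −log10 p, summit reads and background were solved with a tolerance of 0.001 in −log10 p, which recovered 17884 of 17884, 35220 of 35221, and 44751 of 44752 peaks, and the peaks not recovered have no summit value. The most common lowest background is the genome mean, which corresponds to about 15.9, 18.9, and 26.3 M reads, taking the narrowest peak as the fragment length. Joining and solving were tested on simulated data. Intervals are exact Clopper-Pearson for shares, order-statistic for medians, and conditional binomial for read ratios, and cover counting error or the spread over regions, not that between mice. A ratio to a region with no 2-month peak was kept as infinite in medians.

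The clusters, lists, and comparisons were chosen with earlier results of these data known. Clusters named are the 12 with most covered bp at 20 months, those over an ECM gene, the first 5 with no 2-month peak, the 5 with the highest and the 5 with the lowest ratio of 10 to 20 months, the 5 with most covered bp at 2 months, and the 3 on either side of each limit. Clusters near *Itgal*, *Mmp9*, and *Ecm1* were named for their distance. The gene positions are the mm9 positions of 84 ECM genes that the study lists. No mm9 genome or annotation was used, so no other gene was placed and peak sequences are not shown. The lists of muscle and cell type genes that had been set out for naming clusters were therefore not used. Columns of other series numbered 0.

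Alternatives were the joining gap, the least span and number of peaks, stricter or equally long lists, merged or fixed-width peaks, other overlap limits, clusters from the 10-month list or from all lists, and leaving out the cluster of rank 6, the last of which was chosen after seeing the data.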

Additional observations from a re-analysis of the deposited data

Results flagged for a closer look

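Chromosome X was not part of the comparisons. By the same rule it held 5 clusters at 20 months, and it was listed with 559, 710, and 921 peaks at 2, 10, and 20 months. The longest, chrX:11654073-11717694, held 6, 12, and 13 peaks over 1578, 4365, and 4737 bp. The clusters at chrX:47919797-47968165 and chrX:72975090-73010461 had no 2-month peak, and 11 and 9 peaks at 20 months. By contrast, chrX:166410960-166446977 held 17, 5, and 8 peaks over 6723, 2783, and 4176 bp, with more covered bp at 2 months. Differences between the ages on this chromosome were not tested.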

How the results depend on the processing

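No paired analysis was possible because each age has 1 library. The number of clusters depended on the rule. Against 217, it was 4 with a gap of 5000 bp, 1053 with 25000 bp, 57 with a span of at least 50 kb, 341 with at least 5 peaks, 59 with at least 12 peaks, 30 with the better 50% of each list by q, and 45 with peaks within 1 kb merged. In these last 2 settings the clusters were defined anew, and peaks within them at 2, 10, and 20 months were 160, 242, and 311 with the better 50% (91240, 140105, and 158685 bp) and 251, 326, and 416 with merging (270221, 281495, and 350976 bp). Both settings changed the lists as well as the number of clusters, and the part of each in the lower totals was not tested. With windows of 200 bp around summits covered bp was 265831, 337325, and 461556. With lists shortened to equal length by q, 954 peaks at 10 months (567285 bp) and 1009 at 20 months (566916 bp) lay in the 217 clusters, fewer than the 1337 at 2 months. When only summits at 10 or more genome means counted, 852 peaks at 2 months did.

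The median ratio of covered bp for 10 over 2 months was 2.23. It was 0.93 with the gap of 5000 bp, where only 4 clusters remain, 3.07 with 25000 bp, 2.76 with at least 5 peaks, 1.97 with at least 12 peaks, 2.73 with the better 50%, 1.59 with equal lists, 3.13 with the higher summits, and 1.43 with fixed windows. For 20 over 2 months (2.68) the values in the same order were 0.99, 3.58, 3.34, 2.27, 3.28, 1.58, 3.44, and 2.00. For 20 over 10 months (1.18) the ratio was 1.07 with the gap of 5000 bp, 1.13 with at least 12 peaks, 1.09 with the better 50%, 1.33 with fixed windows, and 1.10 with the 378 clusters of all lists together. It turned to 1.00 (0.998257, interval 0.97 to 1.04) with equal lists and to 0.98 (0.95 to 1.02) with the 108 clusters of the 10-month list, so the excess at 20 over 10 months depended on list length and on the list that chose the clusters.

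The share of 20-month peaks overlapping a 10-month peak (70.8%) was 84.1% with the gap of 5000 bp, 75.1% with at least 12 peaks, 78.1% with the better 50%, 77.9% with equal lists, 66.6% with an overlap of at least 50% of the peak, and 86.5% with clusters of the 10-month list. That for the 2-month list (40.3%) was 93.7% and 33.5% with the gaps of 5000 and 25000 bp, 37.5% and 47.0% with at least 5 and 12 peaks, 45.3% with the better 50%, 62.3% with equal lists, 31.7% with the higher summits, 27.2% with the overlap of 50%, and 46.7% with clusters of the 10-month list. Clusters by the same rule in the 2-month list (40) were 6 with the better 50%, 9 with the higher summits, and 21 with merging. In the 10-month list (108) they were 17 with the better 50%, 17 with equal lists, below the 40 at 2 months, and 18 with merging. The 2 ECM genes became 0 with the gap of 5000 bp and with the better 50%, 13 with 25000 bp, 1 with at least 12 peaks, and 5 with TSSs within 50 kb.

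Median summit coverage inside over outside clusters (1.37 at 10 months, 1.40 at 20 months) was 1.23 and 1.29 when outside meant the other joined regions with 2 or more peaks, and turned to 0.86 and 0.84 when measured as fold over local background. The other 52 values recomputed kept their direction, and counts and totals among them stayed within 1.5 times of the value reported. The 2-month library, with the lowest coverage, limits what its list can show: at a genome mean of 1.26 reads a low peak can be missed, and a peak not listed is not a region without H3K27ac.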
